A study of Mus musculus with 21 samples.

Results

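The cells were those of the mouse pancreatic tumour clone 6419c5 in 2 lines labelled EPHA2-KO. They are called KOA and KOB here after the letters of the deposited table, and the comparison was of one knockout line with the other. KOA and KOB had 3 libraries each, so 6 of the 21 libraries of the series entered, chosen by the clone, the line letter and the library number in their column names. The 3 libraries of parental 6419c5 and the knockout lines of a second clone, 6694c2 (4 libraries of its KOA and 4 of its KOB), were used where their levels help to place a difference. All these cells were grown under the skin of C57BL/6 mice with no treatment. Tumours were taken after 3 weeks and sorted for tumour cells before RNA was extracted. How the edit was made, whether a line is a single clone and by which marker cells were sorted is not stated. Nor is it stated that each library is a tumour of its own mouse, so p values measure the spread between libraries of a line, which may be technical. In the main fit that spread was estimated over all 21 libraries of the series. The labels number the knockout lines and the table letters them, and which number is which letter is not given.

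EPHA2 is a receptor tyrosine kinase that binds ephrin-A ligands on neighbouring cells and, in carcinoma cells, can also signal without ligand through ERK and AKT. The series compared lines labelled EPHA2-KO with EPHA2-WT cells of the same clone. Lines derived separately from a tumour cell culture can carry different copy numbers of chromosomes and different stable states of silenced genes, apart from the edit. Setting the knockout lines against each other shows which genes differ between cells that share the label EPHA2-KO.

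Values were TPM, a measure of relative transcript abundance in which every library adds up to the same total. The read depth behind them is unknown. Of 24623 genes in the table, 13145 reached 1 TPM in at least 3 of the 6 libraries and were tested, 5048 were at 0 in all 6, and the rest fell between. Pearson's r across genes between libraries of a line was 0.961 to 0.983 in KOA and 0.980 to 0.983 in KOB. A pair of libraries stood apart. KOA library 2 held macrophage transcripts at a summed level of 9932 TPM over 21 markers, against 656.5 and 634.7 TPM in the other KOA libraries, 728, 1018 and 744 TPM in KOB and 2055, 5462 and 4618 TPM in parental cells. In that library the complement gene C1qa stood at 849.6 TPM, against 32.9 to 59.1 TPM in the other 5 knockout libraries. KOB library 2 had the highest interferon-response level, a mean log2(TPM + 1) of 5.99 over 49 genes, against 4.52 and 5.02 in the other KOB libraries and 4.51, 4.91 and 4.62 in KOA. Counts in the gene lists are given with the range left when a library at a time is taken out, or without both of these, where that moves them by over 1.5 times. The sorted cells had the defining markers of ductal pancreatic tumour cells. Krt19 had 4671, 4411 and 4672 TPM in KOA and 4268, 3308 and 4694 TPM in KOB. Krt18 had 3299, 2802 and 3016 TPM in KOA and 3190, 3057 and 3752 TPM in KOB. T cell markers were near 0 (Cd3e at most 0.578 TPM in the 6 libraries), with 2 to 3 of 14 T and NK cell genes at 0 in KOA and 2 to 5 in KOB.

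**Figure D1:**
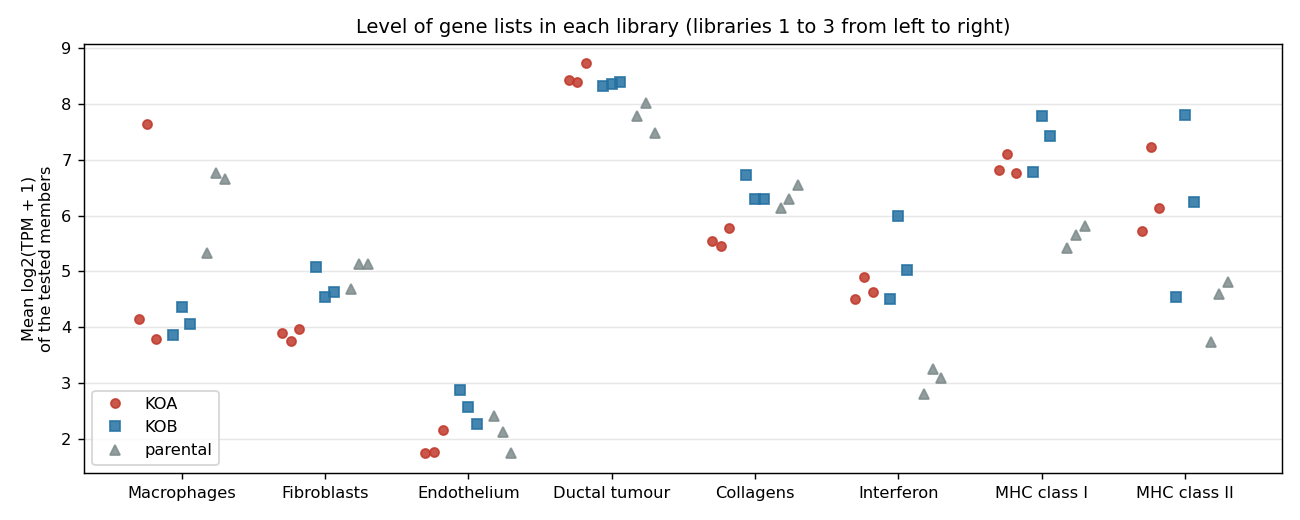
Mean log2(TPM + 1) over the tested members of 8 gene lists (vertical axis) in each library of KOA, KOB and parental 6419c5; each point is a library. KOA library 2 stands at 7.63 for macrophage markers and KOB library 2 at 5.99 for interferon-response genes, apart from the other libraries of their lines, whereas all 3 KOA libraries lie below all 3 KOB libraries for collagens and fibroblast markers.

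Between KOA and KOB, 2510 of 13145 genes (19.1%) were called at an adjusted p under 0.05 by limma, 691 of them higher in KOA (5.26%) and 1819 lower in KOA (13.8%). Of the calls, 121 were higher in KOA and 286 lower by at least 1 on the log2(TPM + 1) scale. In 5056 genes (38.5%) the 3 KOA libraries did not overlap with the 3 KOB libraries, and 2417 of the calls were among them. The median log2 fold change over all tested genes was -0.04 and its median size 0.20. The split between higher and lower calls depended on the scaling: median-of-ratios size factors gave 1358 higher and 1529 lower, quantile normalization 1594 and 1638, and a correction for GC content 1469 and 1450. These shift the median of all genes to 0.02, 0.03 and 0.03, so a direction of a small change is relative to the scaling. Of the 28 genes with the largest differences described next, none changed direction under any of the 18 alternatives and 24 were called under each one that tested them. These genes were picked as called, with lines that did not overlap, so leaving out libraries could not reverse their direction. Of all 129 named genes called, 62 were called under every setting that tested them. Without KOA library 2 and KOB library 2 together the counts over all tested genes were 345 higher and 917 lower. In the same fit and over the same genes, the knockout lines of 6694c2 differed in 6244 genes (47.5%) with a median size of 0.29 and 4 libraries a line. The letters of the clones are not known to mark the same edit, and the clones were not tested against each other.

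The transcript of the targeted gene was present in both lines. Epha2 had 144, 152 and 156 TPM in KOA, 169.7, 201 and 221 TPM in KOB and 164, 175 and 190.4 TPM in parental cells, so all KOA values lie below all KOB values and below all parental ones. The log2 fold change of Epha2 was -0.38 ± 0.12 (SE, limma adjusted p = 0.034). An exact two-sided permutation test of the 6 libraries gave p = 0.10, the smallest that 3 against 3 allow. The difference passed the limma threshold in neither the fit of the 6 libraries alone (adjusted p = 0.056) nor after GC correction (log2 fold change -0.22, adjusted p = 0.126). A gene-level TPM does not read the edit or the protein, and these values are no check of the label. The list of EPH receptors and ephrins, Epha2 included, had 14 of 19 genes tested (median 0.13). None was called higher and 2 were lower (14.3%, against 13.8% of all genes). Besides Epha2, only Efnb1, a transmembrane ephrin-B, was called. Efnb1 had 27.9, 26.96 and 35.1 TPM in KOA and 40.8, 39.6 and 35.5 TPM in KOB (log2 fold change -0.36 ± 0.12, adjusted p = 0.049). With one library left out, 0 or 1 of the list was called lower. The EPHA2 ligand gene Efna1 was not called, with 48.1, 59.8 and 58.1 TPM in KOA and 36.3, 36.4 and 45.6 TPM in KOB (adjusted p = 0.19). Nor was Ephb4, with 73.7, 74.7 and 99.8 TPM in KOA and 83.2, 73.4 and 67.2 TPM in KOB.

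The guidance receptors Robo1 and Robo2, which bind SLIT ligands and steer migrating cells and axons, were among the largest gains of KOA over KOB. Robo1 had 13.4, 11.8 and 12.8 TPM in KOA, 1.35, 1.52 and 1.39 TPM in KOB and 2.1, 1.97 and 1.87 TPM in parental cells. Robo2 had 5.44, 4.98 and 6.38 TPM in KOA, 0.334, 0.122 and 0.178 TPM in KOB and 0.249, 0.35 and 0.234 TPM in parental cells. In both genes KOB sat near the parental level, and KOA was far above the other groups. The log2 fold change of Robo1 was 2.50 ± 0.17 (SE, limma adjusted p = 2.06e-08) and that of Robo2 was 2.44 ± 0.11 (adjusted p = 2.67e-10). They are neighbours on chromosome 16, with 844.5 kb between their annotated ends. The flanking genes were not called (Gbe1, a glycogen-branching enzyme gene, -0.16 with adjusted p = 0.333, and Hspa13, a heat-shock protein family gene, -0.13 with adjusted p = 0.649). Of the ligands, Slit3 had 2.05, 2.34 and 2.003 TPM in KOA and 6.59, 5.05 and 5.91 TPM in KOB (log2 fold change -1.12 ± 0.23, adjusted p = 0.00231), while Slit2 had 7.62, 6.24 and 10.5 TPM in KOA and 10.1, 10.1 and 5.72 TPM in KOB (adjusted p = 0.90). The SLIT genes were looked at after these values were seen. Because the pair moved together, the 250 bases before a RefSeq start of each gene (GRCm38.p6, the mm10 assembly) are given, 5′ to 3′ in the direction of transcription, with CG dinucleotides, the sites of DNA methylation in promoters, in capitals.
Robo1, chr16:72662899-72663148, plus strand: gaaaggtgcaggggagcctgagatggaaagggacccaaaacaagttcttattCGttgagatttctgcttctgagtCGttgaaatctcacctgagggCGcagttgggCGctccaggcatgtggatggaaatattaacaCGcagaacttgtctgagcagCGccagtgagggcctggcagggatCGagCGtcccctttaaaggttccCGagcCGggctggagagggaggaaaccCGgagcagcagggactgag
Robo2, chr16:74411826-74412075, minus strand: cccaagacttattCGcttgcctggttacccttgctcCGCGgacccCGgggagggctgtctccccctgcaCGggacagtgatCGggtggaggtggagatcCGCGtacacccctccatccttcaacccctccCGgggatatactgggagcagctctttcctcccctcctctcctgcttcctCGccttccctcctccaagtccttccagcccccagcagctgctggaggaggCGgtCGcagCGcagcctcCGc
Both stretches lie inside the annotated genes (Robo1 72027518 to 73047491, Robo2 73891976 to 75447443). They precede internal starts and not the ends where the annotated genes begin. The Robo1 stretch holds 11 CG and the Robo2 stretch 14, against a median of 16 (quartiles 9 and 23) over the 10009 tested genes with a promoter in the same table. Of 3 Robo2 starts in that table, the one shown is the only one whose following bases were found in a GENCODE transcript, and it has the most CG. The other Robo2 stretches hold 8 and 4, under the lower quartile. Gene-level values do not say which start was used, and methylation was not measured.

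The other large gains of KOA were genes of varied roles. Hmgn3, a nucleosome-binding protein, had 27.6, 22.2 and 31.9 TPM in KOA and 2.1, 0.933 and 1.71 TPM in KOB (log2 fold change 3.46 ± 0.20, adjusted p = 2.76e-09). Parental libraries had 18.7, 14.7 and 16.9 TPM of it. Hook1, a linker of cargo to microtubules, had 12.7, 11.7 and 15.4 TPM in KOA and 1.98, 1.34 and 1.11 TPM in KOB (log2 fold change 2.53 ± 0.18, adjusted p = 4.11e-08). KOB was the lowest group for both, and parental cells (5.35, 8.11 and 3.56 TPM for Hook1) lay between the lines. KOB was also lowest for Htatip2, a tumour suppressor gene, with 28.1, 31.3 and 30.1 TPM in KOA, 6.22, 5.83 and 5.69 TPM in KOB and 15.6, 18.6 and 12.5 TPM in parental cells. Fgfr4, a fibroblast growth factor receptor, had 9.12, 8.8 and 12.4 TPM in KOA, 2.01, 1.04 and 0.938 TPM in KOB and 11.2, 7.89 and 6.81 TPM in parental cells. Agr2, a protein disulphide isomerase of mucus-secreting epithelium, stood at 13.4, 14.6 and 14.6 TPM in KOA, 3.56, 1.33 and 1.82 TPM in KOB and 14.6, 7.25 and 8.63 TPM in parental cells (log2 fold change 2.29 ± 0.60, adjusted p = 0.012). Phgr1, a gene of gastrointestinal epithelium, had 9.12, 8.27 and 16.04 TPM in KOA, 3.34, 0.573 and 0.685 TPM in KOB and 8.34, 18.6 and 5.69 TPM in parental cells. In a second set it was KOA that departed from the parental level. Pcbp3, an RNA-binding protein, had 10.2, 9.6 and 11.9 TPM in KOA, 1.87, 1.07 and 1.34 TPM in KOB and 0.664, 1.43 and 1.32 TPM in parental cells. Arhgef26, a guanine nucleotide exchange factor, had 5.71, 4.92 and 9.76 TPM in KOA, 0.957, 0.801 and 0.334 TPM in KOB and 0.77, 1.66 and 0.439 TPM in parental cells. Prdx4, a peroxiredoxin of the endoplasmic reticulum, had 116, 99 and 97.3 TPM in KOA, 30.3, 18.4 and 20.5 TPM in KOB and 11.8, 33.5 and 14.4 TPM in parental cells. Parental cells lay between the lines for Uchl1, a ubiquitin hydrolase, which had 26.96, 35.3 and 30.04 TPM in KOA, 9.24, 3.91 and 3.62 TPM in KOB and 13.3, 10.9 and 14.8 TPM in parental cells. Gmfg, an actin-disassembly factor of blood cells, had 9.95, 26.4 and 10.2 TPM in KOA and 1.42, 3.01 and 2.14 TPM in KOB. Its highest value was in KOA library 2, which holds the macrophage transcripts, and the other 2 KOA libraries also lie above all KOB libraries. Over the 14 largest gains the parental mean on the log2 scale was nearer to KOA in 8 and nearer to KOB in 6.

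**Figure D2:**
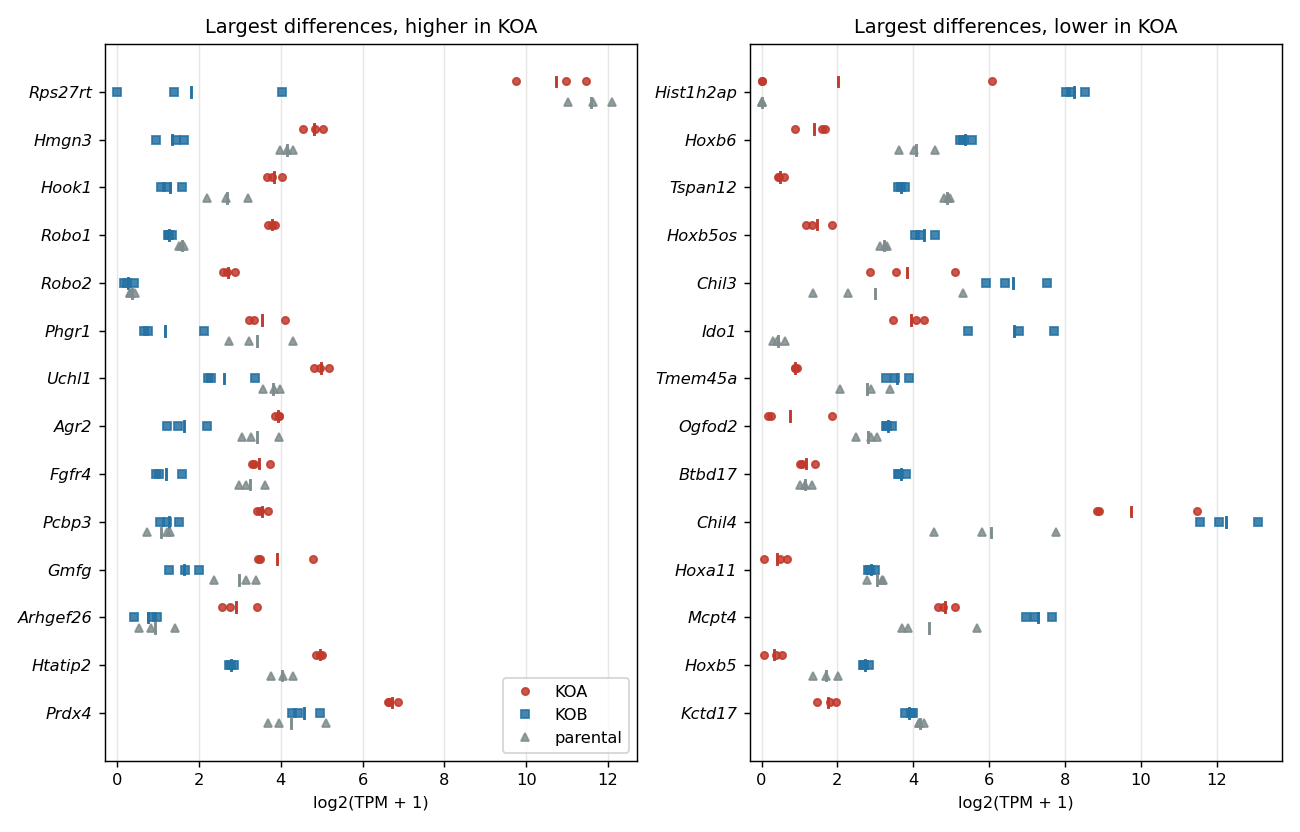
log2(TPM + 1) (horizontal axis) of the 14 largest gains and 14 largest losses of KOA by the naming rule; each point is a library of KOA, KOB or parental 6419c5 and each short line the mean of a group. By the rule the KOA and KOB points never overlap, while the parental points side with KOA in some genes (Hmgn3, Btbd17) and with KOB in others (Robo1, Tspan12).

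A pair of the largest values belongs to genes with near-identical copies and is uncertain. Rps27rt, a retrotransposed copy of the ribosomal gene Rps27, had 2837, 855 and 1993 TPM in KOA, 15.2, 0.00407 and 1.64 TPM in KOB and 2090, 4412 and 3176 TPM in parental cells. Rps27 itself had 6951, 6807 and 5686 TPM in KOA and 4949, 4208 and 4244 TPM in KOB. Hist1h2ap had 0, 0 and 66.3 TPM in KOA and 261, 287 and 370.4 TPM in KOB. Its near-copy Hist1h2ao went the other way, with 655, 673 and 460.1 TPM in KOA and 441, 237 and 214 TPM in KOB. How reads were divided between such copies is set by the quantification, and sequence differences between the lines at these genes were not measured.

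HOX genes, transcription factors that give cells a position along the body axis and whose clusters are kept on or off through cell division, differed in both directions. The set was looked at after its members appeared among the largest differences. The table lists 42 HOX genes and HOX antisense transcripts. Of these, 15 passed the filter, 8 were called lower in KOA and 2 higher (over all genes 13.8% were lower and 5.26% higher). Since the largest differences drew attention to the set, the shares are a description. All 5 tested transcripts of the Hoxb cluster on chromosome 11 were lower in KOA. Hoxb6 had 2.03, 2.18 and 0.845 TPM in KOA, 39, 45.8 and 36.7 TPM in KOB and 22.8, 15.2 and 11.4 TPM in parental cells. Hoxb5 had 0.291, 0.455 and 0.0499 TPM in KOA, 5.38, 6.11 and 5.51 TPM in KOB and 3.02, 1.57 and 2.24 TPM in parental cells. Hoxb5os, antisense to Hoxb5, had 1.53, 2.6 and 1.25 TPM in KOA and 17.1, 22.9 and 15.6 TPM in KOB. Since the quantification is not stated to use strand, the reads of Hoxb5 and Hoxb5os cannot be told apart. The annotated span of Hoxb5os (96291037 to 96306910) also holds Hoxb6 (96292814 to 96301569), so the same limit may apply to Hoxb6. Hoxb3 had 0.362, 0.684 and 0.187 TPM in KOA and 3.38, 3.5 and 2.15 TPM in KOB. Hoxb4 was low in both lines, with 0.179, 0.935 and 0.532 TPM in KOA and 1.99, 1.64 and 1.91 TPM in KOB. The log2 fold change of Hoxb6 was -3.98 ± 0.22 (SE, limma adjusted p = 1.10e-09), and that of Hoxb5 was -2.41 ± 0.15 (adjusted p = 8.51e-09). In the Hoxa cluster on chromosome 6 members moved in opposite directions a few genes apart. Hoxa11 had 0.0391, 0.595 and 0.403 TPM in KOA, 5.96, 6.21 and 6.93 TPM in KOB and 8.13, 5.92 and 8.01 TPM in parental cells. Its antisense transcript Hoxa11os had 0.754, 0.777 and 0.775 TPM in KOA and 4.95, 4.92 and 6.2 TPM in KOB, and the limit of unstated strand may apply to this pair too. The order was the reverse for Hoxa9 and Hoxa10. Hoxa9 had 5.21, 6.13 and 8.6 TPM in KOA, 1.48, 1.63 and 1.09 TPM in KOB and 0.866, 0.652 and 0.931 TPM in parental cells (log2 fold change 1.65, adjusted p = 8.13e-07). Hoxa10 had 31.3, 24.5 and 31.2 TPM in KOA and 23.7, 18.3 and 14.4 TPM in KOB (log2 fold change 0.62, adjusted p = 0.011). KOB was near the parental level of Hoxa11 and KOA was not, whereas for Hoxa9 both lines lay above the parental libraries and KOA the farther. Hoxa13 and Hoxa3 were not called (adjusted p = 0.29 and 0.89). Hoxd8 was low in both lines and lower in KOA (0.444, 0.34 and 0.686 TPM in KOA, 1.82, 1.68 and 1.51 TPM in KOB). None of the 9 Hoxc genes passed the filter.

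**Figure D3:**
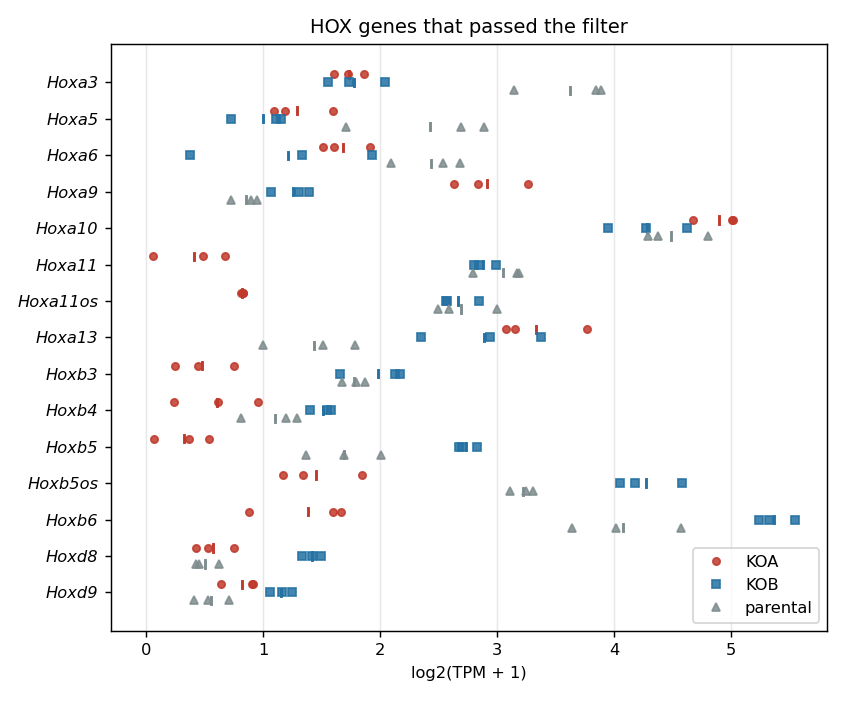
log2(TPM + 1) (horizontal axis) of the 15 HOX transcripts that passed the filter in each library of KOA, KOB and parental 6419c5; short lines are group means. The KOA points lie left of the KOB points for Hoxb3, Hoxb4, Hoxb5, Hoxb5os, Hoxb6, Hoxa11 and Hoxa11os, and right of them for Hoxa9 and Hoxa10.

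Among the other large losses of KOA was Tspan12, a tetraspanin that enhances Norrin and frizzled-4 signalling. Tspan12 had 0.497, 0.363 and 0.366 TPM in KOA, 11.9, 12.8 and 11 TPM in KOB and 26.9, 29.1 and 30.1 TPM in parental cells (log2 fold change -3.19 ± 0.16, adjusted p = 3.14e-10). Tmem45a, a membrane protein gene, had 0.844, 0.83 and 0.905 TPM in KOA, 10.6, 8.69 and 13.7 TPM in KOB and 3.22, 9.52 and 6.39 TPM in parental cells. Kctd17, which encodes an adaptor of cullin-3 ubiquitin ligase, had 1.78, 2.5 and 2.87 TPM in KOA, 12.7, 14.2 and 14.9 TPM in KOB and 16.6, 16.6 and 18.3 TPM in parental cells. Ogfod2 had 0.124, 2.63 and 0.198 TPM in KOA, 8.88, 8.8 and 9.8 TPM in KOB and 7.24, 6.42 and 4.67 TPM in parental cells. In these 4 genes KOB and parental cells were high and KOA was the low group, with KOA library 2 the highest of its line for Ogfod2. For Btbd17 it was KOB that stood out, with 1.03, 1.65 and 1.1 TPM in KOA, 11.4, 11.2 and 12.9 TPM in KOB and 1.2, 1.49 and 1.001 TPM in parental cells. Over the 14 largest losses the parental mean was nearer to KOB in 8 and nearer to KOA in 6.

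Chil4, a secreted chitinase-like protein, and Mcpt4, a mast cell protease, were also among the genes lower in KOA. Chil4 had 2850, 478 and 461 TPM in KOA, 4235, 3018 and 8620 TPM in KOB and 22.5, 216 and 55.3 TPM in parental cells (log2 fold change -2.48, adjusted p = 0.04). Chil3, best known from activated macrophages, had 33.1, 10.7 and 6.26 TPM in KOA, 84.9, 59.4 and 182 TPM in KOB and 38.3, 3.84 and 1.57 TPM in parental cells (log2 fold change -2.78, adjusted p = 0.014). KOA library 1 is far above the other KOA libraries for both. The genes are close paralogs whose reads may be split between them, and the call for Chil4 is lost in the fit of the 6 libraries alone (adjusted p = 0.073). KOA library 2, with macrophage markers at their highest, had the second-lowest Chil3 and Chil4 of the 6 libraries. Mcpt4 had 26.6, 24.2 and 33.2 TPM in KOA, 200.5, 124 and 146 TPM in KOB and 13.5, 50.2 and 12 TPM in parental cells, with log2 fold change -2.43 ± 0.52, adjusted p = 0.0034. The related proteases Mcpt1 and Mcpt2 were looked at after Mcpt4 was seen. Mcpt1 had 33.9, 21.9 and 26.2 TPM in KOA and 92.96, 54.2 and 86.5 TPM in KOB (log2 fold change -1.46, adjusted p = 0.00873). Mcpt2 had 70.2, 41.3 and 67.7 TPM in KOA and 188, 133 and 137 TPM in KOB (log2 fold change -1.36, adjusted p = 0.00921). Other mast cell genes were near 0 in both lines: Cpa3 did not exceed 0.499 TPM, Ms4a2 0.107 TPM and Kit 0.333 TPM in any of the 6 libraries.

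Collagen genes were lower in KOA in 8 of 16 tested (50%, against 13.8% of all genes) and higher in none, with a median log2 fold change of -0.88 against -0.04 over all genes, and in 12 the lines did not overlap (as in 38.5% of all genes). Col1a1 had 324, 327 and 411 TPM in KOA, 1317, 924 and 966 TPM in KOB and 432, 515 and 669 TPM in parental cells. The log2 fold change of Col1a1 was -1.58 ± 0.36 (SE, limma adjusted p = 0.00504). Col15a1, a basement-membrane-zone collagen, had 5.47, 4.93 and 5.2 TPM in KOA and 25.3, 11.98 and 20.2 TPM in KOB (log2 fold change -1.64 ± 0.27, adjusted p = 3.18e-04). For the fibril-initiating genes the values were log2 fold change -1.20 ± 0.33, adjusted p = 0.017 in Col5a1 and log2 fold change -1.27 ± 0.31, adjusted p = 0.00825 in Col5a2. The basement membrane collagen gene Col4a1 differed less (149.8, 144 and 173 TPM in KOA, 219.5, 196 and 183 TPM in KOB, log2 fold change -0.36 ± 0.09, adjusted p = 0.00998). Lox and Loxl1, which cross-link collagen, and Eln, elastin, had the same order when picked afterwards, so they say nothing of other matrix genes. Lox had 7.84, 5.75 and 5.77 TPM in KOA and 27.8, 19.2 and 28.02 TPM in KOB (log2 fold change -1.79, adjusted p = 9.19e-04). Loxl1 had 6.7, 6.26 and 7.06 TPM in KOA and 31.3, 22.99 and 22.1 TPM in KOB (log2 fold change -1.77, adjusted p = 6.06e-06). Eln had 4.82, 5.4 and 8.51 TPM in KOA and 28.97, 16.2 and 17.8 TPM in KOB (log2 fold change -1.59, adjusted p = 0.00155). Over the collagen list, the mean log2(TPM + 1) was 5.45 to 5.79 in KOA, 6.30 to 6.73 in KOB and 6.14 to 6.54 in parental cells. Parental cells thus overlapped KOB and lay above every KOA library, although single genes differed. Parental Col5a2 and Lox overlapped KOA, parental Col1a1 lay between the lines, and parental Col5a1 overlapped the KOB values or exceeded them.

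Markers of fibroblasts and of endothelium also had calls lower in KOA and none higher. Of 13 tested fibroblast and pericyte genes 7 were lower in KOA (53.8%, against 13.8% of all genes) and none higher, with a median of -1.03. Their summed level over 14 genes was 743.5 to 933 TPM in KOA, 1829 to 2701 TPM in KOB and 1304 to 2134 TPM in parental cells. Collagens make up most of that sum, and the lower Col1a1 and Col1a2 are in the collagen list as well, so single markers are given. Acta2, smooth muscle actin, had 21.3, 17.5 and 23.2 TPM in KOA and 54.2, 49.4 and 42.04 TPM in KOB (log2 fold change -1.20 ± 0.20, adjusted p = 4.14e-04). Thy1 had 8.35, 9.09 and 9.3 TPM in KOA and 33.3, 20.99 and 23.2 TPM in KOB. Postn, periostin, had 59.9, 40.9 and 48.4 TPM in KOA and 170.1, 102 and 114 TPM in KOB. In these 3 genes the lines did not overlap. The fibroblast receptor gene Pdgfrb had 2.93, 2.38 and 3.41 TPM in KOA and 8.89, 5.15 and 7.16 TPM in KOB (log2 fold change -1.03 ± 0.32, adjusted p = 0.031). Pdgfra and Dcn were not called. Pdgfra had 2.56, 1.99 and 1.16 TPM in KOA and 4.64, 2.86 and 3.26 TPM in KOB (adjusted p = 0.19). Dcn, decorin, had 5.83, 5.97 and 7.46 TPM in KOA, 13.7, 8.47 and 9.99 TPM in KOB and 54.9, 123 and 237 TPM in parental cells (adjusted p = 0.38). Of 9 tested endothelial genes 4 were lower in KOA (44.4%, against the same 13.8%) and none higher (median -0.50). The summed level over 11 genes was 29.1 to 41.7 TPM in KOA, 50.8 to 76.3 TPM in KOB and 26.1 to 47.8 TPM in parental cells. Plvap, of fenestrated vessels, had 5.06, 6.43 and 11.2 TPM in KOA and 24.5, 23.02 and 20.9 TPM in KOB (log2 fold change -1.54 ± 0.31, adjusted p = 0.00223). Cdh5 was not called, with 1.97, 1.32 and 2.24 TPM in KOA and 6.12, 3.48 and 2.53 TPM in KOB (adjusted p = 0.23). Tumour cells with mesenchymal traits make many of these genes as well. In bulk samples fewer cells of a type and less RNA per cell cannot be told apart, and the part of other cells in the matrix genes was not tested. Without KOA library 2 and KOB library 2 the medians stayed at -0.80 for collagens and -1.07 for fibroblast genes, with 3 calls left in each and 1 among endothelial genes. Leaving out one library at a time left 3 to 7 collagen, 3 to 6 fibroblast and 2 to 4 endothelial calls, the fewest collagen and fibroblast calls without KOB library 1.

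TGF-beta components, mesenchymal factors and metalloproteinases followed in part. Of 17 tested TGF-beta genes 7 were lower in KOA (41.2%, against 13.8% of all genes) and 1 was higher, with a list median of -0.14. Ltbp3, which stores latent TGF-beta in the matrix, had 168, 196 and 224 TPM in KOA and 349, 406 and 321 TPM in KOB (log2 fold change -0.87 ± 0.12, adjusted p = 5.47e-05). The ligand gene Tgfb1 had 70.6, 107 and 91.3 TPM in KOA, 122, 128 and 120.4 TPM in KOB and 92.2, 100.1 and 127 TPM in parental cells (log2 fold change -0.48 ± 0.15, adjusted p = 0.037). The target Ctgf had 299.7, 274 and 296 TPM in KOA and 510.5, 443 and 452 TPM in KOB (log2 fold change -0.69, adjusted p = 0.0034). Among SMAD genes, the inhibitory Smad7 gave log2 fold change -0.78, adjusted p = 0.00412, and its relative Smad6 log2 fold change -0.64, adjusted p = 0.00925. The signal transducer Smad2 gave log2 fold change -0.39, adjusted p = 0.013, and Smad4 log2 fold change -0.38, adjusted p = 0.011. Smad2, Smad4 and Smad7 are on chromosome 18 and Ctgf on chromosome 10, where the median gene was lower in KOA. Without KOA library 2 and KOB library 2, 2 of the list were lower and 1 higher, and without KOB library 2 alone 4 were lower. Of 18 mesenchymal genes 5 were lower in KOA (27.8%) and 1, S100a4, higher (median -0.25). Twist2, a transcription factor of mesenchyme, had 4.45, 3.67 and 4.7 TPM in KOA and 10.7, 15.1 and 9.04 TPM in KOB (log2 fold change -1.23, adjusted p = 0.00375). Snai1, a repressor of E-cadherin, had 3.04, 3.04 and 2.58 TPM in KOA and 6.97, 8.97 and 7.41 TPM in KOB (log2 fold change -1.17, adjusted p = 0.019). No call of this list was left without KOA library 2 and KOB library 2, and 3 to 6 were lower with one library left out. The E-cadherin gene Cdh1 itself had 563, 517 and 588 TPM in KOA and 635, 628 and 635 TPM in KOB and was not called (adjusted p = 0.44). None of 16 tested genes of the epithelial keratin and adhesion list was called, but the fit of the 6 libraries alone called 5 higher and 1 lower. In that list 7 genes had all KOA libraries above all KOB libraries, and 2 had them below. Over all 13145 genes, 1877 had them above and 3179 below. Its mean log2(TPM + 1) was 6.98 to 7.26 in KOA, 6.71 to 6.81 in KOB and 5.88 to 6.59 in parental cells, so the lines did not overlap. Of 14 metalloproteinases and inhibitors 3 were lower in KOA (21.4%; Mmp11, Mmp12 and Timp1), each with overlapping libraries, and 0 to 2 were with one library left out, none without KOB library 1.

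Counts of interferon-response and antigen-presentation genes turned on single libraries. Of 49 interferon-response genes 6 were lower in KOA (12.2%, against 13.8% of all genes) and none higher, with a list median of -0.44. Without KOB library 1, 24 were lower (median -0.77), and without KOB library 2, 3 were (median 0.015). Leaving out KOA library 1 or 3 also gave 3, and without KOA library 2 and KOB library 2 there were 5 (median -0.11). The fit of the 6 libraries alone called 1 lower, and that of the 9 libraries of 6419c5 called 3. Ido1, a tryptophan-degrading enzyme induced by interferon-gamma, differed most. Ido1 had 18.6, 15.9 and 9.96 TPM in KOA, 42.2, 207 and 109.8 TPM in KOB and 0.232, 0.535 and 0.325 TPM in parental cells (log2 fold change -2.70 ± 0.45, adjusted p = 3.98e-04). Socs1, a feedback inhibitor of interferon signalling, had 27.6, 28.5 and 25.01 TPM in KOA and 41.1, 164 and 88.2 TPM in KOB (log2 fold change -1.61 ± 0.30, adjusted p = 0.00107). Bst2, tetherin, had 260.5, 317 and 244 TPM in KOA and 365, 836 and 556 TPM in KOB (log2 fold change -1.02 ± 0.22, adjusted p = 0.00322). The lines did not overlap in these 3 genes, although the highest value was in KOB library 2 each time. In the limma fit of the 6 libraries alone Ido1 was called (adjusted p = 0.024). Socs1 (adjusted p = 0.058) and Bst2 (adjusted p = 0.059) missed the threshold there, as did Nlrc5 (adjusted p = 0.168). Nlrc5, the activator of class I genes, had 7.34, 14.5 and 7.3 TPM in KOA and 11.8, 45.9 and 17.7 TPM in KOB (log2 fold change -1.13 ± 0.33, adjusted p = 0.022), and there the lines overlapped. All 6 called genes of the list (Ido1, Socs1, Bst2, Nlrc5 and Stat2 among them) are among its 14 tested members on chromosomes 1, 8, 10, 16 and 18, and no member elsewhere was called.

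Class I genes were lower in KOA in 4 of 17 tested (23.5%, against 13.8% of all genes, median -0.49). Without KOB library 1 it was 10 of 17 (median -0.74), and without KOA library 2 and KOB library 2 it was 1. None was called without KOA library 1 or 3, without KOB library 2 or 3, or in the fit of the 6 libraries alone. H2-K1 had 2021, 2518 and 1717 TPM in KOA, 1970, 5632 and 4110 TPM in KOB and 266, 342 and 370.4 TPM in parental cells (log2 fold change -0.79 ± 0.27, adjusted p = 0.044). KOB library 1 lies within the KOA range. B2m, the light chain of class I, had 1840, 2156 and 1523 TPM in KOA and 1656, 4094 and 2805 TPM in KOB (adjusted p = 0.09). None of 7 class II genes was called. Cd74, the invariant chain, had 435, 1308 and 608 TPM in KOA and 206, 1843 and 709 TPM in KOB. The lowest and the highest of the 6 values are both in KOB. Of the chemokines that attract T cells, Cxcl9 had 65.4, 66.2 and 59.3 TPM in KOA and 50.2, 339 and 85.2 TPM in KOB (adjusted p = 0.28) and 0.627, 1.78 and 5.48 TPM in parental cells. Cx3cl1, a membrane-bound chemokine, was lower in all KOA libraries, with 30.4, 35.01 and 40.3 TPM in KOA and 63.02, 106 and 67.3 TPM in KOB (log2 fold change -1.10 ± 0.18, adjusted p = 2.85e-04). Cxcl10 lay at the threshold, with 94.1, 104 and 72.7 TPM in KOA and 88.7, 516 and 187 TPM in KOB. None of 13 tested myeloid-recruiting chemokines and colony-stimulating factors was called. Cxcl1 had 43.3, 43.8 and 37.7 TPM in KOA and 28.7, 56.3 and 52.1 TPM in KOB. Csf2 had 8.61, 10.2 and 4.85 TPM in KOA and 3.69, 7.41 and 8.98 TPM in KOB. Csf3 had 1.66, 2.09 and 2.59 TPM in KOA and 1.3, 1.31 and 0.953 TPM in KOB, so its lines did not overlap but missed the threshold (adjusted p = 0.25). Cd274, which encodes PD-L1, had 7.76, 16.9 and 9.56 TPM in KOA and 5.1, 17.8 and 8.66 TPM in KOB (adjusted p = 0.72). Of 20 tested macrophage genes 1 was lower in KOA and none higher. The lower gene, Cd14, had 105, 136 and 140.2 TPM in KOA and 227, 251 and 214 TPM in KOB, an order that KOA library 2 does not break. The median of that list was 1.18 in all libraries and -0.03 without KOA library 2 and KOB library 2.

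NF-kappaB feedback genes and the prostaglandin pathway had calls in both directions. Nfkbiz and Bcl3, nuclear IkappaB proteins, were lower in KOA, and Birc3, an inhibitor of apoptosis, was higher. Nfkbiz had 34, 39.3 and 38.9 TPM in KOA and 60.5, 92.98 and 78.5 TPM in KOB. Bcl3 had 78.5, 85.5 and 78.1 TPM in KOA and 113, 169 and 151 TPM in KOB. Birc3 had 21.7, 27.8 and 19.9 TPM in KOA and 14.4, 17.4 and 13.6 TPM in KOB. In all, 3 of 15 tested were lower (20%, against 13.8% of all genes) and 1 higher, and after GC correction 2 were lower and 5 higher. Ptgs2, the inducible cyclooxygenase, was not called (adjusted p = 0.066). Ptgs2 had 62.5, 35.04 and 35.95 TPM in KOA, 56.95, 88.9 and 81.02 TPM in KOB and 76.3, 85.96 and 147 TPM in parental cells. Ptgds, prostaglandin D synthase, was higher in KOA, with 16.2, 20.6 and 28.6 TPM in KOA and 9.001, 6.88 and 2.63 TPM in KOB (log2 fold change 1.75, adjusted p = 0.00251). Lower were 3 of 13 tested prostaglandin genes (23.1%). Ptgis, prostacyclin synthase, had 1.01, 0.863 and 0.493 TPM in KOA and 2.95, 1.66 and 4.59 TPM in KOB. Of the prostaglandin E synthases, Ptges2 gave log2 fold change -0.55, adjusted p = 5.22e-04 and Ptges3 log2 fold change -0.43, adjusted p = 0.00331.

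ERK output, immediate-early and stress genes were lower in KOA in a minority of each list, in genes that often share chromosomes. Of 17 ERK-output genes 4 were lower (23.5%, against 13.8% of all genes) and none higher. None of these calls was left without KOA library 2 and KOB library 2, and leaving out one library at a time gave 1 to 5, with 1 without KOB library 2 or 3. Dusp6, an ERK phosphatase, had 123, 137 and 136 TPM in KOA and 168, 201 and 206 TPM in KOB (log2 fold change -0.53, adjusted p = 0.014). The feedback inhibitor Spred1 had 13.4, 16.6 and 13.5 TPM in KOA and 22.6, 29.6 and 28.2 TPM in KOB. Myc had 97.03, 90.9 and 88.7 TPM in KOA and 115, 124 and 134 TPM in KOB (log2 fold change -0.42, adjusted p = 0.029). The lines did not overlap in these or in Phlda1 (log2 fold change -0.56, adjusted p = 0.00991). Of 21 immediate-early genes 6 were lower (28.6%), 5 of them on chromosomes 1 and 8. Without KOA library 2 and KOB library 2 there were 4, and without KOA library 1 there were 3. Jund had 255, 339 and 432 TPM in KOA and 583, 736 and 821 TPM in KOB (log2 fold change -1.08, adjusted p = 2.04e-04). Junb had 625, 708 and 791 TPM in KOA and 975, 1273 and 1240 TPM in KOB (log2 fold change -0.71, adjusted p = 0.00189). Klf2, a Krüppel-like factor, had 46.4, 49.1 and 35.2 TPM in KOA and 59.2, 119 and 158 TPM in KOB (log2 fold change -1.25, adjusted p = 0.00312). Fos and Atf3 were not called. Fos had 384, 347 and 399.8 TPM in KOA and 290.0, 329 and 459 TPM in KOB. Atf3 had 178, 155 and 168 TPM in KOA and 82.2, 103 and 138 TPM in KOB. Of 23 genes of the unfolded protein and ATF4 responses 7 were lower (30.4%) and Vldlr, a lipoprotein receptor, was higher. Without KOA library 2 and KOB library 2, 3 were lower, and leaving out one library at a time gave 4 to 12, the most without KOB library 1. Among the 7 lower, 6 are the list's 6 tested genes on chromosomes 8, 10 and 16. Shmt2, of mitochondrial one-carbon metabolism, had 82.3, 80.96 and 72.3 TPM in KOA and 122, 132 and 179 TPM in KOB (log2 fold change -0.85, adjusted p = 3.74e-04). The chaperone Hsp90b1 had 369.9, 302 and 318 TPM in KOA and 477, 449 and 434 TPM in KOB (log2 fold change -0.46, adjusted p = 0.00184). Atf4 and Hspa5, which are on chromosomes 15 and 2, were not called (adjusted p = 0.92 and 0.10).

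The p53 targets, metabolic genes and cell cycle genes had further calls, to be read against the 13.8% of all genes that were lower. Of 16 tested genes in the list of p53 targets and the Cdkn2 locus, which includes Trp53 and Cdkn2a, 4 were lower (25%). Without KOA library 2 and KOB library 2 there were 2. On chromosomes 1, 8, 10, 16 and 18, where the median gene was lower in KOA, lie 3 of the 4. The list has 5 tested genes there. Phlda3, an AKT inhibitor, had 84.98, 82.4 and 92.4 TPM in KOA and 163, 182 and 183 TPM in KOB (log2 fold change -1.02, adjusted p = 1.40e-07). Bbc3, which encodes the apoptosis inducer PUMA, had 10.4, 15.3 and 16.7 TPM in KOA and 21.1, 23.4 and 29.04 TPM in KOB. Trp53 and the tumour suppressor gene Cdkn2a were not called. Trp53 had 172, 195 and 187 TPM in KOA and 193, 192 and 175 TPM in KOB. Cdkn2a had 716, 708 and 902 TPM in KOA and 826, 927 and 917 TPM in KOB. Of 28 hypoxia and glycolysis genes 6 were lower (21.4%), and 3 without both those libraries. Among the 6 lower, 4 are on chromosomes 1, 8, 10, 16 and 18, where the list has 5 tested genes. The lactate exporter Slc16a3 had 5.52, 17.5 and 6.19 TPM in KOA and 32.05, 36.01 and 40.4 TPM in KOB (log2 fold change -1.96, adjusted p = 1.34e-04). Ddit4, an mTOR inhibitor, had 216, 234 and 233 TPM in KOA and 359, 460.0 and 424 TPM in KOB (log2 fold change -0.86, adjusted p = 5.19e-06). Cholesterol synthesis had 4 lower of 23 (17.4%), but 1 without KOB library 3 and 7 without KOA library 2 and KOB library 2. The fatty acid list had 1 lower of 12 (8.33%), and 0 or 1 with one library left out. Of 36 cell cycle genes 2 were lower (5.56%; 1 or 2 with one library left out) and 1 higher, and D cyclins moved in opposite directions. Ccnd3 had 64.3, 65.8 and 68.1 TPM in KOA and 95.1, 99.8 and 91.3 TPM in KOB (log2 fold change -0.52, adjusted p = 0.00534). Ccnd2 had 102, 91.3 and 116 TPM in KOA and 77.3, 70.6 and 65.3 TPM in KOB (log2 fold change 0.53, adjusted p = 0.00853).

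Some lineage genes differed in level. None of 10 tested ductal identity genes was called (median 0.00), and the fit of the 6 libraries alone called 1 higher and 1 lower. Of 14 gastric and mucin genes Agr2 was higher in KOA and 4 transcription factors were lower (28.6%, against 13.8% of all genes), and 2 to 5 were lower with one library left out. Without KOB library 2, Agr2 missed the threshold (adjusted p = 0.0552). Gata6, a regulator of the classical subtype of pancreatic cancer, had 29.9, 34.05 and 41.8 TPM in KOA, 62.2, 79.4 and 68.9 TPM in KOB and 20.3, 25.4 and 20.4 TPM in parental cells (log2 fold change -0.98 ± 0.12, adjusted p = 1.86e-05). Its relative Gata4 had 23.7, 26.4 and 29.8 TPM in KOA and 35.2, 41.1 and 38.5 TPM in KOB (log2 fold change -0.51 ± 0.15, adjusted p = 0.026). Foxa2 had 48.4, 53.6 and 56.6 TPM in KOA and 61.5, 76.6 and 82.5 TPM in KOB (log2 fold change -0.46 ± 0.10, adjusted p = 0.00428). The libraries overlapped for Onecut2. Gata6 and Onecut2 are on chromosome 18, and Gata4 and Foxa2 are not on a chromosome that was lower as a whole. Of 9 tested squamous genes 3 were lower (33.3%). Krt15 had 9.63, 7.47 and 7.94 TPM in KOA and 17.6, 20.03 and 32.2 TPM in KOB (log2 fold change -1.34, adjusted p = 1.30e-04). Krt13 had 26.8, 21.9 and 16.8 TPM in KOA and 35.5, 33.9 and 51.2 TPM in KOB (log2 fold change -0.85, adjusted p = 7.63e-04). Ivl, involucrin, had 3.44, 2.4 and 2.65 TPM in KOA and 10.3, 14.4 and 8.27 TPM in KOB (log2 fold change -1.63, adjusted p = 5.22e-04). Krt14 was not called, and Krt5 is barely detected. Krt14 had 54.5, 27.6 and 26.2 TPM in KOA and 55.02, 30.97 and 65.9 TPM in KOB (adjusted p = 0.17), and Krt5 did not exceed 0.0443 TPM. Among adhesion receptors, the collagen-binding integrin gene Itga1 was higher in KOA, with 101, 81.98 and 102 TPM in KOA and 49.4, 49.6 and 36.3 TPM in KOB (log2 fold change 1.06, adjusted p = 3.53e-04). So was Lamb3, a subunit of epithelial laminin, with 47.7, 40.5 and 53.7 TPM in KOA and 31.7, 19.5 and 25.8 TPM in KOB (log2 fold change 0.87, adjusted p = 0.043). The laminin genes Lamb2 (log2 fold change -0.49, adjusted p = 0.022) and Lama4 (log2 fold change -0.96, adjusted p = 0.00365) were lower. Acinar genes were low in both lines, and of 3 tested, Cela1 and Prss2 were higher in KOA and Reg1 was lower. Cela1, an elastase, had 3.12, 6.29 and 7.8 TPM in KOA, 2.04, 2.5 and 1.78 TPM in KOB and 21.1, 20.9 and 17.9 TPM in parental cells. Prss2 had 1.57, 1.94 and 1.15 TPM in KOA and 0.657, 0.442 and 0.346 TPM in KOB. Reg1 had 0.159, 0.813 and 1.91 TPM in KOA and 6.85, 10.45 and 2.3 TPM in KOB (log2 fold change -1.87, limma adjusted p = 0.027).

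By difference of TPM the largest gains of KOA were in small abundant transcripts. S100a6, a calcium-binding protein, had 7912, 6803 and 7095 TPM in KOA and 5707, 5087 and 5292 TPM in KOB (log2 fold change 0.44 ± 0.15, adjusted p = 0.049). Crip1, a LIM-domain protein, had 4117, 3482 and 3425 TPM in KOA and 2413, 1912 and 2030 TPM in KOB (log2 fold change 0.80 ± 0.21, adjusted p = 0.014). Of 33 ribosomal protein genes 4 were higher in KOA (over all genes 5.26% were) and 1 lower (median 0.10), and 0 to 3 were higher with one library left out, none without KOA library 1 or KOB library 3. The abundant Rps18 had 5082, 4812 and 4580 TPM in KOA and 3811, 3756 and 4161 TPM in KOB (log2 fold change 0.30 ± 0.10, adjusted p = 0.046). With size factors from the median of ratios 3 were higher and none lower, and after GC correction 6 were higher and none lower. The 1 lower gene, Rps15 (2232, 2310 and 2155 TPM in KOA, 2836, 2852 and 2968 TPM in KOB, log2 fold change -0.37 ± 0.08, adjusted p = 0.00252), had a log2 fold change of 0.04 after that correction. The largest losses by TPM, besides Chil4 and Col1a1, were in Igfbp4, Mif and Eef2. Igfbp4, an IGF-binding protein, had 2630, 2345 and 2773 TPM in KOA and 3383, 3823 and 3631 TPM in KOB (log2 fold change -0.49 ± 0.11, adjusted p = 0.00516). Mif, a cytokine, had 1388, 1366 and 1209 TPM in KOA and 1992, 2341 and 2265 TPM in KOB (log2 fold change -0.73 ± 0.12, adjusted p = 2.62e-04). Eef2, a translation elongation factor, had 1527, 1740 and 1714 TPM in KOA and 2301, 2353 and 2551 TPM in KOB (log2 fold change -0.53 ± 0.09, adjusted p = 4.94e-04). Mif, Eef2 and Rps15 are all on chromosome 10.

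A few genes were on in one line and near 0 in the other. Xlr3a, of an X-linked multicopy family expressed in lymphoid and germ cells, had 3.77, 2.12 and 3.24 TPM in KOA, was listed at 0 in all 3 KOB libraries and had 0.108, 0.3 and 0.126 TPM in parental cells. It shares sequence with Xlr3b and Xlr3c, so its reads may be split. Slc1a3, a glutamate and aspartate transporter, had 2.4, 2.01 and 3.15 TPM in KOA, 0.135, 0.0654 and 0.0502 TPM in KOB and 0.151, 0.21 and 0.132 TPM in parental cells (log2 fold change 1.69 ± 0.11, adjusted p = 2.06e-08). No gene with a name was on in KOB and off in KOA by the same limits (at least 2 TPM in all libraries of one line, under 0.2 TPM in all of the other), leaving aside 9 microRNAs and small nucleolar RNAs, whose host transcripts can supply reads. Of 12 tested imprinted genes 1 was lower in KOA (8.33%, against 13.8% of all genes) and none higher. The lower gene was the maternally expressed non-coding RNA Meg3. Meg3 had 5.09, 3.51 and 6.3 TPM in KOA, 18.6, 15.9 and 15.2 TPM in KOB and 4.38, 4.73 and 2.12 TPM in parental cells (log2 fold change -1.58 ± 0.26, adjusted p = 3.26e-04).

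The losses of KOA were spread unevenly over the chromosomes. Of 340 tested genes on chromosome 18, 153 (45.0%, against 13.8% of all genes) were lower in KOA and 2 higher, with a median log2 fold change of -0.37. On chromosome 10, 265 of 619 were lower (42.8%) and 7 higher (median -0.34). Chromosome 8 had 222 lower and 14 higher of 750 (median -0.23). Chromosome 16 had 87 lower and 12 higher of 417 (median -0.21), and chromosome 1 had 152 lower and 14 higher of 761 (median -0.145). On each other chromosome the median was between -0.05 and 0.06. These 5 chromosomes, singled out after the medians were seen, held 879 of the 1819 genes lower in KOA (48.3%) and 49 of the 691 higher. There were 936 lower and 642 higher among the 10229 genes placed elsewhere, whose median was 0.01. On chromosomes 8, 10, 16 and 18 the median of every KOA library lay below the mean of the 6. That of every KOB library lay above it. On chromosome 1 KOB library 3 stood at -0.004, against 0.11 and 0.13 in the other KOB libraries. On chromosome 16 KOB library 3 stood at 0.04, against 0.13 in each of the others. As median differences from the mean of the 6, chromosome 18 stood at -0.17, -0.24 and -0.16 in KOA and 0.23, 0.21 and 0.12 in KOB. Chromosome 10 stood at -0.19, -0.17 and -0.18 in KOA and 0.20, 0.18 and 0.13 in KOB. The lines did not overlap on chromosomes 1, 8, 10, 16 and 18.

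**Figure D4:**
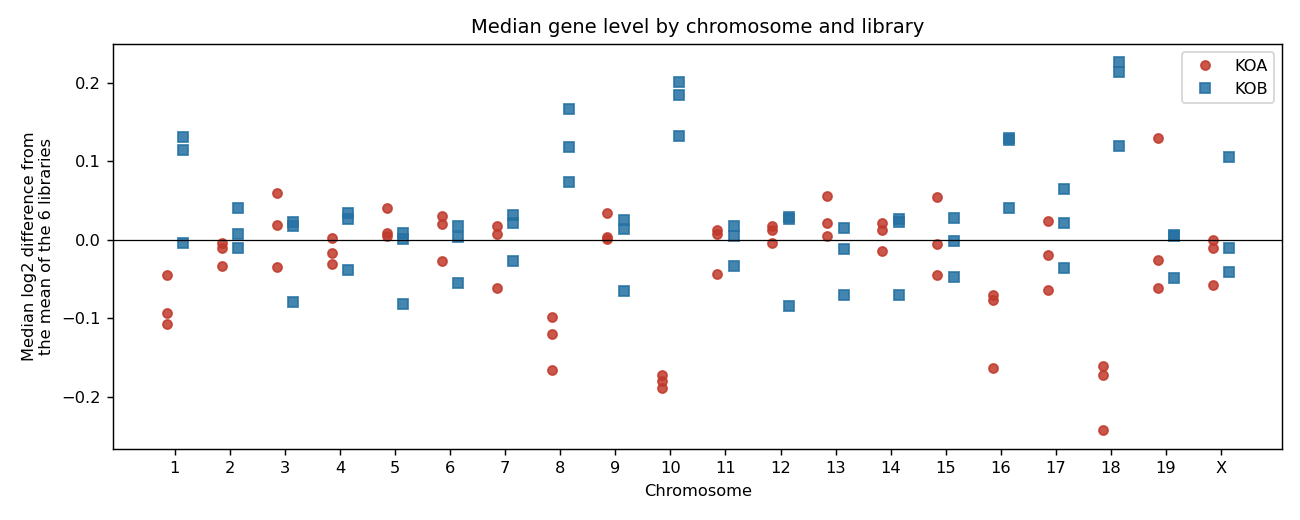
Median over the tested genes of a chromosome (horizontal axis) of the log2 difference of a library from the mean of the 6 knockout libraries (vertical axis); each point is a library of KOA or KOB. All KOA points lie below all KOB points on chromosomes 1, 8, 10, 16 and 18, by 0.37 on the log2 scale at the median gene of chromosome 18.

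Beside parental cells, the median of KOB was farther from 0 than that of KOA on 4 of these chromosomes. The median log2 fold change of KOA over parental cells was 0.03 on chromosome 10, -0.05 on chromosome 18, 0.05 on chromosome 16 and -0.08 on chromosome 8, and that of KOB over the same parental libraries was 0.37, 0.31, 0.25 and 0.15. On chromosome 1 KOA was the farther from 0, with -0.18 against -0.02 for KOB. Such medians were not all near 0 elsewhere. They were 0.23 for KOA and 0.25 for KOB on chromosome 11, and 0.11 and 0.125 on chromosome 7. The KOB medians of chromosomes 16 and 8 do not exceed these clearly, so which line departed there is not settled. On chromosome 3 (0.24 for KOA and 0.24 for KOB) and chromosome 2 (-0.20 and -0.16) both lines departed from parental cells alike. These comparisons share the parental libraries. DNA copy number was not measured, so a difference in the number of a chromosome and another difference in the level of its genes cannot be told apart.

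The difference ran along whole chromosomes or large parts of them. Running medians over 41 consecutive tested genes were under -0.1 in all 300 windows of chromosome 18, all 579 of chromosome 10 and 703 of 710 of chromosome 8, but in 317 of 377 on chromosome 16. There, the window from Tmem186 to Fopnl (mm10, 8633731 to 14318229) had a median of 0.11 and the window from Ppil2 to 2510002D24Rik (17086555 to 18840113) one of -0.33, and the rest of the chromosome stayed low. Robo1 and Robo2 lie in that lower part, so their gain in KOA runs against their neighbourhood. The lowest window of chromosome 10 was -0.65 and ran from Rps15 to Snord37 (80292431 to 81179013), a stretch that holds 41 tested genes in under 1 Mb. GC content moved with the difference: in 5 equal groups of genes ordered from low to high GC, the medians were 0.02, 0.03, -0.01, -0.06 and -0.20, and KOA library 1 was the lowest of the 6 libraries in the group of highest GC. Within every GC group the 5 chromosomes were lower than the others (-0.18 against 0.07 at the lowest GC and -0.47 against -0.15 at the highest). After GC correction the medians were -0.33 on chromosome 18, -0.27 on chromosome 10, -0.18 on chromosome 16, -0.15 on chromosome 8 and -0.11 on chromosome 1. Between KOA and KOB of 6694c2 the same chromosomes had medians of 0.02, 0.01, -0.10, -0.001 and 0.09, and the largest were 0.49 on chromosome X and -0.28 on chromosome 14.

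**Figure D5:**
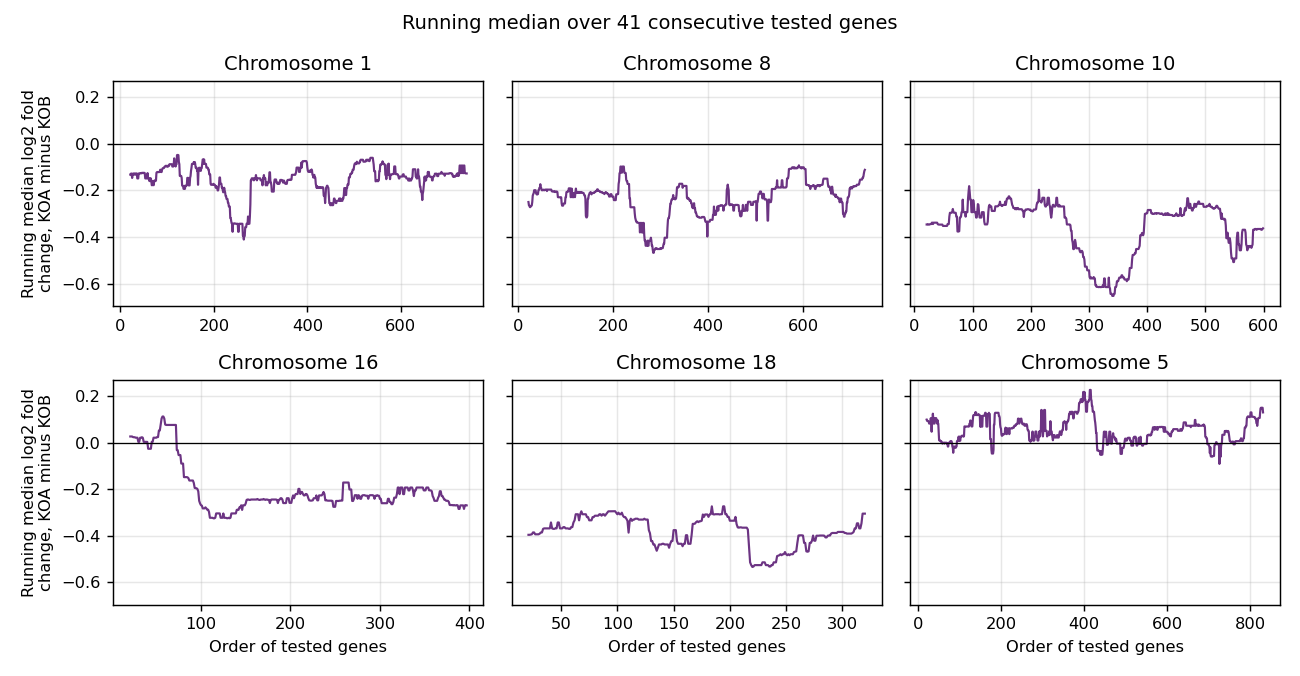
Running median over 41 consecutive tested genes of the log2 fold change KOA minus KOB (vertical axis) in the order of genes along chromosomes 1, 8, 10, 16, 18 and, for comparison, 5 (horizontal axis). Chromosomes 10 and 18 lie below 0 along their whole length, and chromosome 16 starts near 0 and then drops to about -0.2 to -0.3.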

How the data were processed

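RNA sequencing of sorted tumour cells was deposited by the authors as 1 table of gene-level TPM (relative transcript abundance), made with Salmon against mm10 per the submitters' processing notes. The Salmon version, transcript annotation and gene-level step are not given in the sources used here. Each library adds up to 1000000 TPM, so depth is unknown and no counting interval can be given.

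From these, log2(TPM + 1) of genes with at least 1 TPM in 3 or more of the 6 libraries was fitted with limma 3.58.1 in R 4.3.3 (lmFit, contrasts, eBayes with trend) over the 21 libraries, 1 mean per line for 6 lines (15 residual and 3.26 prior degrees of freedom). The contrast was KOA minus KOB, two-sided, with Benjamini-Hochberg adjustment over 13145 genes and a threshold of 0.05. Fold changes are on the log2(TPM + 1) scale, which understates low genes, and ± is the limma standard error. The procedure was tested on simulated data. Positions came from the RefSeq table of GRCm38.p6 (13116 tested genes matched, 288 by a synonym), and GC content from GENCODE vM21 transcripts (12961 genes). A list's level in a library was the mean log2(TPM + 1) of its tested members.

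The comparison, the 39 gene and marker lists and the members were chosen with earlier results of these data known. Genes were named by a rule: among called genes whose lines did not overlap and whose higher mean was at least 5 TPM, the 14 largest fold changes and the 6 largest TPM differences each way; genes at 2 TPM or more in all libraries of one line and under 0.2 TPM in all of the other; up to 4 called members of each list; and 15 fixed genes. Some genes that the rule names are not reported here. Genes outside it are named as looked at afterwards or as members of a list. A promoter search for the interferon motif was planned only if that list moved together and was not run. Python 3.11.15, numpy, pandas and matplotlib made the summaries and plots.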

Additional observations from a re-analysis of the deposited data

How the results depend on the processing

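Of 18 settings, the total of 2510 calls stayed within 1.5 times in 15, the 1819 lower in KOA in 15 and the 691 higher in KOA in 8. The fit of the 6 libraries alone gave 431 higher and 1263 lower, and that of the 9 libraries of 6419c5 gave 1391 in all (305 and 1086). Median-of-ratios size factors gave 1358 higher, quantile normalization 1594 and GC correction 1469. Leaving out a library at a time gave 1591 to 2223 in all, 358 to 655 higher and 1170 to 1568 lower, with the fewest in all and the fewest lower without KOB library 2 and the fewest higher without KOB library 3; without KOA library 2 and KOB library 2 it was 1262 in all (345 and 917). GC correction and the removal of both libraries were chosen after seeing the data. The numbers do not pair the samples (r of same-numbered deviations 0.14, 0.19 and -0.12), and a replicate block gave 521 higher and 1524 lower. In 6694c2 the 6244 calls became 5498 and 6677. Of 129 named genes called, 62 were called under every setting that tested them. Epha2 kept its direction: its log2 fold change was -0.379 with an adjusted p of 0.056 in the fit of the 6 libraries, -0.225 (0.126) after GC correction, -0.370 (0.146) without both libraries and -0.482 to -0.293 (0.015 to 0.151) leaving out one at a time. Directions reversed in Rps15 (0.035 after GC correction) and in genes that were not called: Cdkn2a (0.0902 after GC correction), Cd274 (-0.105 without KOA library 2, -0.187 without KOB library 1, up to 0.625 without KOB library 2), Cd74 (-0.328, -0.703 and 0.876 likewise), Csf2 (-0.095 without KOB library 1, up to 0.505 without KOA library 3), Cxcl1 (0.00015 with quantile normalization, 0.098 and 0.043 without KOB library 2 or 3, down to -0.377 without KOB library 1, 0.0601 without both libraries) and Trp53 (0.049 with median-of-ratios, 0.067 with quantile normalization, 0.061 after GC correction, and 0.0307, 0.0061 and 0.0037 without KOA library 1, KOB library 1 or KOB library 2, down to -0.063 without KOB library 3). The cause was not tested. Depth is unknown, so differences in genes near 1 TPM have no counting error.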

Other observations

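Some short RNAs in the table were on in one line and at 0 in the other. By the limits used for Xlr3a and Slc1a3, Mir1954 was on in KOA (2.68, 4.72 and 2.95 TPM) and at 0 in all 3 KOB libraries. On in KOB and at 0 in all 3 KOA libraries were Snord68, with 4.60, 25.2 and 12.0 TPM in KOB, and 8 microRNA genes, among them Mir677 with 11.2, 6.28 and 4.72 TPM in KOB. A small nucleolar RNA or microRNA hairpin is shorter than most sequenced fragments, so its TPM can rest on few reads, which the table does not show.

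The share of genes called differed between classes of abundance. It was 18.3% of 2784 genes with a mean under 5 TPM over the 6 libraries, 15.4% of 4080 genes between 5 and 20 TPM, 20.5% of 4684 genes between 20 and 100 TPM and 25.8% of 1597 genes above 100 TPM. Among the 14 largest losses of KOA, the 8 genes with a promoter in the RefSeq table had a median of 4 CG in the 250 bases before their start, and among the 14 largest gains the 12 with one had a median of 9, against 16 over 10009 tested genes. These counts describe genes chosen for their differences.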
